A study of Homo sapiens with 12 samples.

Results

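The 9 genes described here encode negative feedback regulators of mitogen-activated protein kinase (MAPK) signalling: the dual-specificity phosphatases DUSP1, DUSP4, DUSP5, DUSP6 and DUSP10, the Sproutys SPRY2 and SPRY4, and the Sprouty-related proteins SPRED1 and SPRED2. They were chosen by name, and all 9 were found among the 61533 gene entries of the deposited tables. All 9 were also among the 15616 genes with enough counts for testing. RNA was sequenced from 4 lines made from HMLE, a human mammary epithelial line immortalised with telomerase and SV40 antigens. The CT83 line carried a CT83 transgene, the HORMAD1 line a HORMAD1 transgene, the double line both, and the control line a control construct, with 3 samples per line and 12 in all. CT83 and HORMAD1 are cancer/testis genes, normally active in the germ line and active again in some tumours. All 4 lines had been selected with puromycin and none had a further treatment. Whether a line is 1 clone or a pool is not given in the sources used here, and neither are the supplements of the DMEM:F12 medium. The labels also do not say whether the samples of a line were separate cultures, so the p-values measure the spread between these samples, which may be technical.

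In the ERK branch of MAPK signalling, a growth factor receptor such as EGFR activates Ras, which activates RAF, MEK and then ERK. ERK in turn induces transcription of phosphatases and Sprouty genes whose products damp the same pathway, so their transcripts are often used as a readout of ERK activity. The parallel JNK and p38 branches answer mainly to stress and are switched off by an overlapping set of phosphatases. Mammary epithelial cells depend on EGFR signalling for growth in culture.

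The transgenes were read where the labels place them. HORMAD1 was listed at 0 in all 3 CT83 and all 3 control libraries, and stood at 203, 332 and 335 CPM (read counts scaled to a common library total, with TMM normalisation) in HORMAD1 libraries and 283, 313 and 347 CPM in double libraries. CT83 was listed at 0 in the HORMAD1 and control lines, and stood at 400, 446 and 724 CPM in CT83 libraries and 86.7, 101 and 118 CPM in double libraries. Total counts per library were between 9898845 and 14159740. Basal mammary markers (KRT5, KRT14, KRT17, TP63 and ITGA6) summed to between 4716 and 6557 CPM, with none of the 5 at 0 in any line. Fibroblast markers (6 genes) summed to between 28.4 and 43.6 CPM in CT83 libraries, 26.1 and 46.9 in the HORMAD1 line, 38.4 and 88.8 in the double line, and 40.3 and 71.7 in the control line, and LUM was at 0 throughout the CT83 line. The leukocyte pair PTPRC and CD14 summed to at most 7.98 CPM in any library, with PTPRC at 0 in the CT83, HORMAD1 and control lines, and the endothelial pair PECAM1 and VWF to at most 0.976 CPM. Libraries stood apart in how levels ran with transcript length. HORMAD1 replicate 1, CT83 replicate 3 and control replicate 2 had the highest slopes, 0.185, 0.167 and 0.0911 log2 units per 10-fold longer transcript. Double replicates 1 and 2 had the lowest, -0.147 and -0.0863. The fit without the first 3 libraries, called the 3 high-slope libraries below, kept both of these double libraries.

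Per kilobase of the longest annotated transcript, DUSP10 had the highest level and SPRY4 the lowest. DUSP10, which acts mainly on JNK and p38, averaged 34.5 CPM per kb over the 12 libraries, with a range of 27 to 46.8. DUSP4, a nuclear phosphatase of ERK and JNK, averaged 31.8 CPM per kb with a range of 26.3 to 35.5. DUSP6, a cytoplasmic phosphatase selective for ERK, averaged 23.5 CPM per kb with a range of 19.6 to 32.9. Below them came DUSP5, a nuclear ERK phosphatase, and DUSP1, an immediate-early phosphatase of p38, JNK and ERK. DUSP5 averaged 16.5 CPM per kb (range 14 to 20.5) and DUSP1 averaged 12 CPM per kb (range 9.47 to 14.3). The SPRED proteins, which bind neurofibromin and hold back Ras, came below all 5 phosphatases by their means. SPRED2 averaged 8.93 CPM per kb (range 7.05 to 11.8) and SPRED1 averaged 5.25 CPM per kb (range 4.75 to 6.04). SPRY2, which inhibits signalling from receptor tyrosine kinases to ERK and binds CBL, averaged 4.34 CPM per kb (range 2.59 to 6.1). SPRY4, a second Sprouty inhibitor of the same route, averaged 1.89 CPM per kb (range 1.43 to 2.69). Of neighbours in this order, SPRED2 and SPRED1 had ranges that did not overlap, and every other neighbouring pair overlapped. Levels per kb depend on the transcript taken, since the isoform in use was not measured.

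Promoter windows from RefSeq (GRCh38.p14, 250 bases before to 50 after the gene's start) were matched for 7 of the 9 genes, not for DUSP4 and DUSP5. The windows of DUSP10, on which the comparisons below turn, and of DUSP1 and DUSP6, whose starts lie inside opposite-strand entries, are shown 5′ to 3′ on the gene's strand, with motif matches in capitals. They are chr1:221742040-221742339, chr5:172771146-172771445 and chr12:89352452-89352751, all on the minus strand.
DUSP10: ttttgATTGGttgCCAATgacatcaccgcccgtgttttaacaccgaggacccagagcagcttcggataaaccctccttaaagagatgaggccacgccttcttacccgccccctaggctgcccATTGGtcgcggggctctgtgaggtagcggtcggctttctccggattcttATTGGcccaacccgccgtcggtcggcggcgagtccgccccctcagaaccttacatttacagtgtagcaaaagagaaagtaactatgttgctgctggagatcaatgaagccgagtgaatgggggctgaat
DUSP1: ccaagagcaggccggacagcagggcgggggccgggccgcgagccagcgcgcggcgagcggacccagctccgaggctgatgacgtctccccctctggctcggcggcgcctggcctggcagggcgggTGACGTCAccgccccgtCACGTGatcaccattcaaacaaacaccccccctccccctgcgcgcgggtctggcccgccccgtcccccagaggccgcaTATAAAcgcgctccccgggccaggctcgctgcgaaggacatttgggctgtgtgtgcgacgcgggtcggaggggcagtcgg
DUSP6: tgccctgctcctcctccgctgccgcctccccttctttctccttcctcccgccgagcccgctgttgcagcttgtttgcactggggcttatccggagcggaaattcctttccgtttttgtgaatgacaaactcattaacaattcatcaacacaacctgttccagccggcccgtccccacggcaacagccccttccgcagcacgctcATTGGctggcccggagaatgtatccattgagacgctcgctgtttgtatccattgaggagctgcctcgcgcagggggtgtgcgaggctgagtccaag
The capitals mark matches to 7 motifs searched on both strands: the cAMP response element TGACGTCA, the E-box CACGTG, the TATA box TATAAA, the CCAAT box (CCAAT, or ATTGG on the other strand), an AP-1 site TGANTCA, an ETS core CCGGAA and the CArG box. No match overlaps another. The DUSP10 window holds 4 CCAAT boxes, starting at positions -245, -237, -128 and -79 from the start, and its GC content is 55%. Of 35116 RefSeq windows of this length, 34.6% hold at least 1 CCAAT box and 0.991% hold 4 or more. The DUSP1 window, with 73.3% GC, holds a cAMP response element at -125 (in 1.85% of all windows), an E-box at -108 (7.26%) and a TATA box at -30 (11.5%). The DUSP6 window holds a CCAAT box at -46. SPRY2 has an ETS core at -142, which 17.2% of windows hold. SPRY4, SPRED1 and SPRED2 had no match, and none of the 7 windows held AP-1 (7.71% of all windows) or CArG (1.29%) letters. A match describes letters in the window and is not a binding site.

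In GRCh38 with GENCODE 29, the 9 are protein-coding genes on 8 chromosomes, with SPRY4 and DUSP1 both on chromosome 5. DUSP10 lies at chr1:221701424-221742176, DUSP4 at chr8:29333064-29350668, DUSP6 at chr12:89347232-89353271, DUSP5 at chr10:110497838-110511544 and DUSP1 at chr5:172768090-172771195. SPRY2 lies at chr13:80335976-80340951, SPRY4 at chr5:142310427-142326455, SPRED1 at chr15:38252326-38357249 and SPRED2 at chr2:65310851-65432637. DUSP5 and SPRED1 are on the plus strand and the other 7 on the minus strand. For 3 genes an entry on the opposite strand shares part of the locus. ENSG00000253736 spans all of DUSP1 and averaged 23.2 CPM against 24.2 CPM for DUSP1, which is 83 to 118% of the DUSP1 count in each library. ENSG00000274021 covers the 5′ end of DUSP6 and averaged 39.7 CPM against 104 CPM for DUSP6, 35.2 to 42.7% of its count. SPRY4-AS1 overlaps the start of SPRY4 and averaged 2.43 CPM against 10.1 CPM for SPRY4, 16.1 to 35.5% of its count. Use of strand in counting is not given in the sources used here, so reads of these genes and of their opposite-strand partners cannot be told apart. Adding the partner's counts to each of the 3 genes led to 0 of the 9 being called in any comparison by edgeR, but moved DUSP1. With the partner added, the DUSP1 log2 fold change was -0.17 in place of -0.24 for the CT83 line against control, -0.04 in place of -0.17 for the double line against control, and -0.08 in place of -0.23 for the double against the HORMAD1 line. DUSP6 and SPRY4 moved by less, with DUSP6 at 0.32 in place of 0.29 and SPRY4 at -0.13 in place of -0.06 for the double line against control.

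The first question the design asks is what each transgene alone did, as each line against control. In the CT83 line the phosphatases DUSP1, DUSP4, DUSP5 and DUSP10 had lower means than in control, and the other 5 genes had means above it, but 0 of the 9 were called by edgeR's quasi-likelihood test at a Benjamini-Hochberg adjusted p under 0.05. Over all genes tested, 0.0064% were called in this comparison. Since bulk RNA was measured, fewer cells of a type and less RNA per cell cannot be told apart here or below.
DUSP4 had 169, 146 and 179 CPM in CT83 libraries, against 183, 188 and 193 CPM in control libraries. Every CT83 library was below every control library, with a log2 fold change of -0.19 (SE 0.081, 95% interval -0.36 to -0.02, n = 3 each) and an edgeR adjusted p of 0.984. DUSP1 had 23.2, 22.8 and 19.1 CPM in CT83 libraries, against 23.5, 24.6 and 28.8 CPM in control libraries. Here too the groups did not overlap, though CT83 replicate 1 lay just under control replicate 1, and the log2 fold change was -0.24 (SE 0.13, edgeR adjusted p = 0.984). These 2 of the 9 genes were lower without overlap between the groups, as were 5.73% of all genes tested, and 0 of the 9 were higher without overlap, as 4.73% of all genes were.
DUSP10 had 72.9, 77 and 96.8 CPM in CT83 libraries, against 103, 96 and 109 CPM in control libraries. CT83 replicate 3 reached into the control range, and the other 2 CT83 libraries lay below it, with a log2 fold change of -0.32 (SE 0.17, edgeR adjusted p = 0.984). DUSP5 had 42.1, 35.7 and 37.3 CPM in CT83 libraries, against 41, 44.3 and 46.7 CPM in control libraries, and overlapped by CT83 replicate 1.
The other genes differed little against their spread. SPRY2 had 10.7, 11.4 and 15.6 CPM in CT83 libraries, against 9.33, 12.2 and 9.77 CPM in control libraries, and SPRY4 had 10.9, 8.13 and 13.7 CPM in CT83 libraries, against 8.87, 10.8 and 9.02 CPM in control libraries. Within the CT83 line both Sproutys were highest in replicate 3, a library in which long transcripts read high. Log2 fold changes were 0.27 (SE 0.24) for SPRY2, 0.19 (SE 0.23) for SPRY4, 0.06 (SE 0.15) for SPRED2, 0.03 (SE 0.13) for DUSP6 and 0.02 (SE 0.1) for SPRED1. Without the 3 high-slope libraries SPRY4 stood at 0.09, SPRED2 at -0.1, DUSP6 at -0.02 and SPRED1 at 0. The median over the 9 genes was 0.02, beside 0.01 over all genes tested. An unadjusted p under 0.05 was reached by DUSP4 alone of the 9, and by 2.74% of all genes tested.

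None of the 9 genes separated the HORMAD1 libraries from the control libraries. Against control, 0 of the 9 were called by edgeR, where 0.0064% of all genes tested were, and each of the 9 overlapped between the lines. Of all genes tested, 3.32% were lower and 4.25% higher without overlap.
DUSP10 had 72.3, 114 and 125 CPM in HORMAD1 libraries, against 103, 96 and 109 CPM in control libraries. HORMAD1 replicate 1 was the lowest and replicate 3 the highest of all 12 libraries, so the mean of 104 ± 27.8 CPM in HORMAD1 libraries beside 103 ± 6.61 CPM in control libraries (SD, n = 3 each) sits between libraries that disagree. DUSP4 had 181, 184 and 196 CPM in HORMAD1 libraries, against 183, 188 and 193 CPM in control libraries, with a log2 fold change of -0.01 (SE 0.081, 95% interval -0.18 to 0.17). In folds of control the DUSP4 interval was 0.885 to 1.123.
DUSP6 had 116, 98.9 and 101 CPM in HORMAD1 libraries, against 101, 86.2 and 98.4 CPM in control libraries. DUSP5 had 52.3, 40.4 and 42.4 CPM in HORMAD1 libraries, against 41, 44.3 and 46.7 CPM in control libraries. In both genes HORMAD1 replicate 1 was the highest library of its line. The log2 fold changes were 0.15 (SE 0.13) for DUSP6 and 0.04 (SE 0.11) for DUSP5, with an edgeR adjusted p of 1 for each of the 9 genes. DUSP1 had 25.3, 27 and 27.5 CPM in HORMAD1 libraries, inside the control range, for a log2 fold change of 0.05 (SE 0.13). The largest differences were 0.28 (SE 0.24) for SPRY2 and 0.18 (SE 0.23) for SPRY4, the genes with the fewest counts and the widest errors. SPRED1 stood at 0.15 (SE 0.095) and SPRED2 at -0.11 (SE 0.15). Without the 3 high-slope libraries DUSP6 stood at 0.01, DUSP5 at -0.08, DUSP10 at 0.18, SPRY2 at 0.45 and SPRY4 at 0. The median over the 9 genes was 0.05, beside 0.01 over all genes tested, and 0 of the 9 had an unadjusted p under 0.05, where 1.82% of all genes did.

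**Figure D1:**
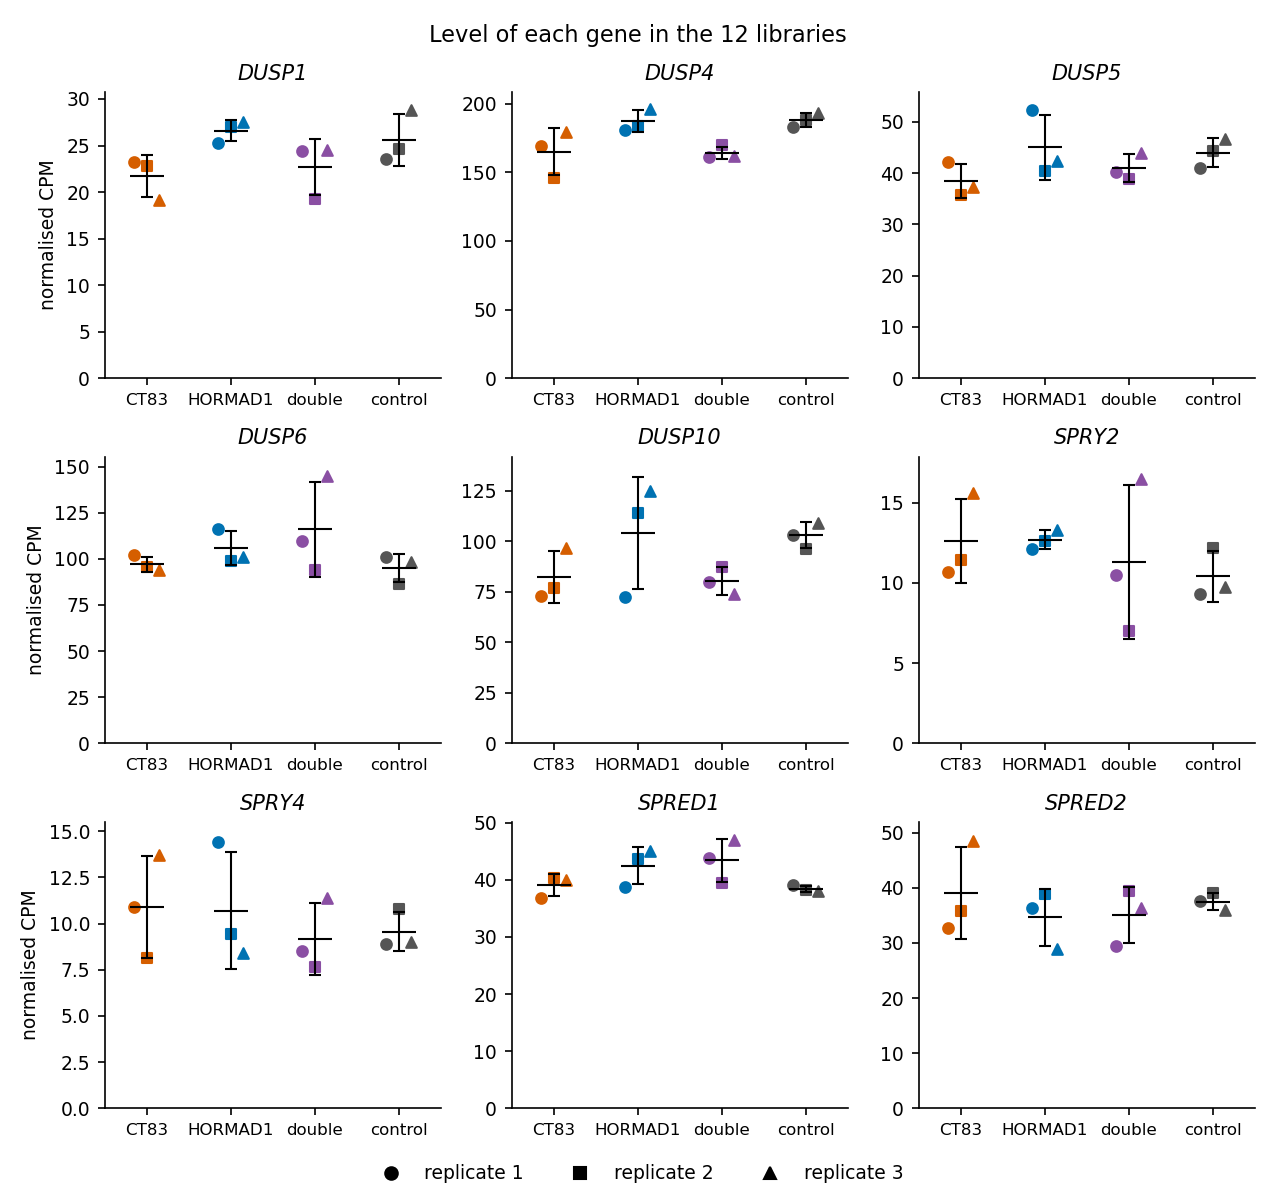
CPM of each of the 9 genes in the 12 libraries, 1 panel per gene with its own axis from 0, points for libraries and bars for line means, with the CT83, HORMAD1 and double lines left of control. DUSP4 lies between 146 and 179 CPM in the 6 libraries that carry CT83 and between 181 and 196 CPM in the other 6.

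The double line asks what both transgenes did together. Against control, 0 of the 9 genes were called by edgeR, where 0.0256% of all genes tested were. DUSP4 and DUSP10 were lower without overlap, as were 7.83% of all genes, and SPRED1 was higher without overlap, as were 7.61%.
DUSP4 had 161, 170 and 162 CPM in double libraries, against 183, 188 and 193 CPM in control libraries, a log2 fold change of -0.19 (SE 0.081, 95% interval -0.37 to -0.02, edgeR adjusted p = 0.864). With the trend on transcript length removed, DUSP4 stood at -0.13 (SE 0.1, edgeR unadjusted p = 0.202 in place of 0.0306). In the CT83 line against control it then stood at -0.23 (edgeR unadjusted p = 0.0368). DUSP10 had 79.6, 87.4 and 73.9 CPM in double libraries, against 103, 96 and 109 CPM in control libraries, a log2 fold change of -0.35 (SE 0.17, edgeR adjusted p = 0.892). For both phosphatases all 3 double libraries lay below all 3 control libraries. SPRED1 had 43.8, 39.4 and 47 CPM in double libraries, against 39.1, 38.2 and 38 CPM in control libraries. Double replicate 2 was only just above the highest control library, and the log2 fold change was 0.18 (SE 0.1, edgeR adjusted p = 0.9).
DUSP6 had 110, 94.2 and 145 CPM in double libraries, against 101, 86.2 and 98.4 CPM in control libraries. The line means differed by a log2 fold change of 0.29 (SE 0.13, 95% interval 0.02 to 0.56, edgeR adjusted p = 0.87), double replicate 3 was the highest of the 12 libraries, and double replicate 2 lay inside the control range. SPRY2 had 10.5, 7.02 and 16.5 CPM in double libraries, against 9.33, 12.2 and 9.77 CPM in control libraries, and its lowest and highest libraries of all 12 were both double libraries. SPRY4 had 8.52, 7.63 and 11.4 CPM in double libraries, against 8.87, 10.8 and 9.02 CPM in control libraries. The other log2 fold changes were -0.17 (SE 0.13) for DUSP1, -0.1 (SE 0.11) for DUSP5, 0.11 (SE 0.25) for SPRY2, -0.06 (SE 0.23) for SPRY4 and -0.1 (SE 0.15) for SPRED2. Without the 3 high-slope libraries SPRY2 stood at 0.23, SPRY4 at 0.03 and DUSP6 at 0.22 (edgeR unadjusted p = 0.203 for DUSP6). With the trend on transcript length removed, DUSP6 stood at 0.33 (edgeR unadjusted p = 0.0202). The median over the 9 genes was -0.1, beside 0 over all genes tested. DUSP4 (lower) and DUSP6 (higher) had an unadjusted p under 0.05, where 5.56% of all genes did.

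Set against each single line, the double line addresses what the second transgene added. CT83 itself stood at 86.7, 101 and 118 CPM in double libraries and at 400, 446 and 724 CPM in CT83 libraries. The comparison with the CT83 line thus differs in CT83 level as well as in HORMAD1. Against the CT83 line 0 of the 9 genes were called by edgeR (0.0064% of all genes tested), and all 9 overlapped, where 9.04% of genes were lower and 8.86% higher without overlap. At an unadjusted p under 0.05 were 0 of the 9 and 8.05% of all genes. DUSP4 and DUSP10 differed between these lines by log2 fold changes of 0 (SE 0.081) and -0.03 (SE 0.17), or by 0.06 and 0.1 without the 3 high-slope libraries. DUSP6 had the largest difference, 116 ± 25.7 CPM in double libraries and 97.1 ± 4.07 CPM in CT83 libraries (SD, n = 3 each). Its fold change on the log2 scale was 0.26 (SE 0.13, edgeR adjusted p = 0.585). Double replicate 3 stood at 145 CPM, above every CT83 library, and double replicate 2, at 94.2 CPM, lay within the CT83 range.
Against the HORMAD1 line 0 of the 9 genes were called by edgeR (0.0448% of all genes tested). DUSP1 and DUSP4 were lower in the double line without overlap, as were 5.91% of all genes, and 0 of the 9 were higher without overlap (6.29% of all genes). DUSP4 alone had an unadjusted p under 0.05, as did 7.59% of all genes. DUSP4 had 161, 170 and 162 CPM in double libraries, against 181, 184 and 196 CPM in HORMAD1 libraries, a log2 fold change of -0.19 (SE 0.081, edgeR adjusted p = 0.614). With the trend on transcript length removed, DUSP4 stood at -0.13 (edgeR unadjusted p = 0.214 in place of 0.0346). DUSP1 had 24.4, 19.3 and 24.5 CPM in double libraries, against 25.3, 27 and 27.5 CPM in HORMAD1 libraries, a log2 fold change of -0.23 (SE 0.13, edgeR adjusted p = 0.716). DUSP10 had 79.6, 87.4 and 73.9 CPM in double libraries, against 72.3, 114 and 125 CPM in HORMAD1 libraries. HORMAD1 replicate 1 was below all 3 double libraries and the other 2 were above them, and the log2 fold change was -0.37 (SE 0.17, edgeR adjusted p = 0.665). The 9 genes had a median log2 fold change of -0.17 against the HORMAD1 line and 0 against the CT83 line, beside -0.01 and 0 over all genes tested.

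The interaction asks whether the double line departed from the sum of the single lines on the log2 scale. CT83 stood lower in the double than in the CT83 line, so the interaction also takes in that difference in level. edgeR called 0 of the 9 genes, and 0% of all genes tested; at an unadjusted p under 0.05 it had 0 of the 9 and 4.5% of all genes. DUSP4 (0, 95% interval -0.24 to 0.25) and SPRED1 (0, -0.28 to 0.29) had the narrowest intervals. DUSP10 stood at -0.05, with an interval of -0.57 to 0.48. The Sproutys had the largest values, -0.44 for SPRY2 (-1.18 to 0.3) and -0.43 for SPRY4 (-1.12 to 0.26), both at edgeR adjusted p = 0.841. The SPRY4 value was -0.06 without the 3 high-slope libraries and -0.16 without HORMAD1 replicate 1 alone, while that of SPRY2 was -0.42 and -0.48. With all 12 libraries kept and the trend on transcript length removed, SPRY4 stood at -0.32 and SPRY2 at -0.44. DUSP6, at 0.11, stood at 0.23 without the 3 libraries, and DUSP10 at -0.26 without HORMAD1 replicate 1. The libraries held as few as 80 counts of SPRY2 and 87 of SPRY4, and a departure of the size measured was not called. The smallest departure that could have been detected was not computed.

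**Figure D2:**
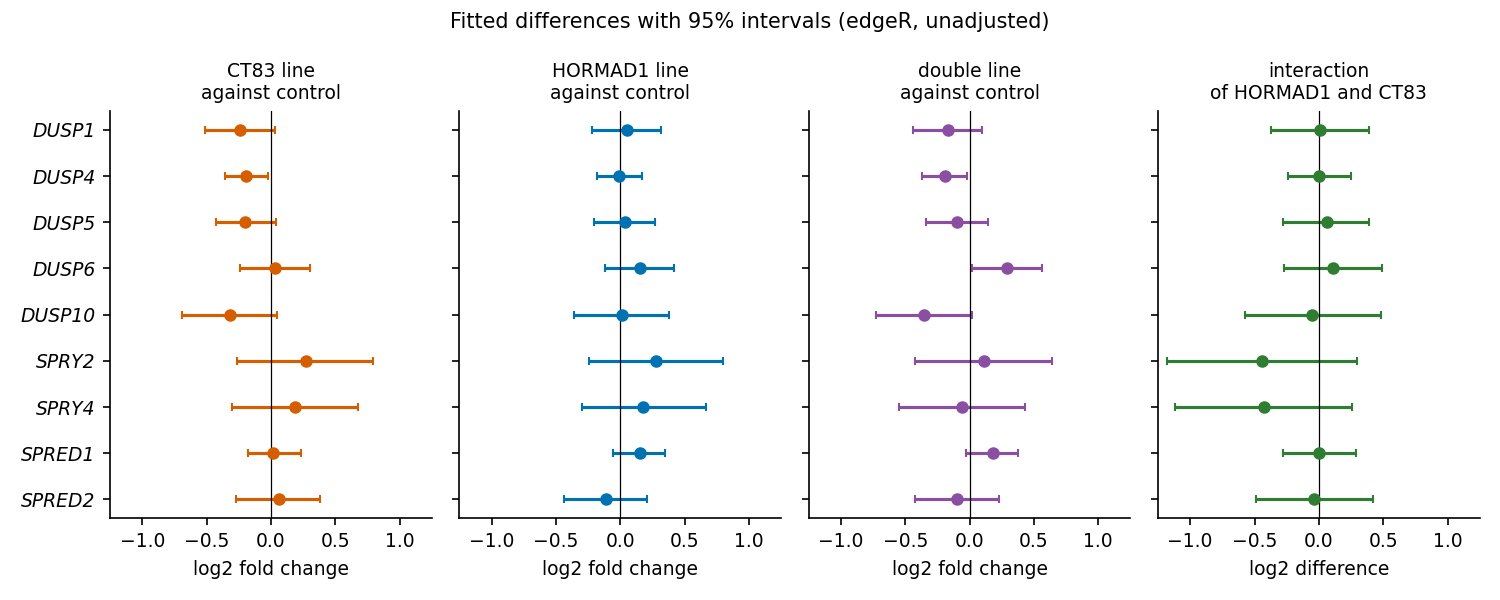
Log2 fold changes of the 9 genes with unadjusted 95% intervals from edgeR, for each of the 3 transgene lines against control and for the interaction. DUSP4 lies below 0 in the CT83 line (-0.19) and the double line (-0.19) and at -0.01 in the HORMAD1 line, and the widest intervals are those of SPRY2 and SPRY4.

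The fitted interaction was near 0 for DUSP4 and DUSP10. For DUSP10 its interval was wide (-0.57 to 0.48), and the value was -0.26 without HORMAD1 replicate 1. The 6 libraries that carry CT83 were also set against the 6 that do not, a comparison added after these values had been seen. The CT83 and double lines carry CT83 at unlike levels, as given above. edgeR called 0 of the 9 genes in it, where 0.032% of all genes tested were called. DUSP4 had a lowest, median and highest value of 146, 165 and 179 CPM with CT83, against 181, 186 and 196 CPM without CT83. All 6 libraries with CT83 lay below all 6 without it, as they did for 0.224% of all genes tested, but the gene was singled out after its values were seen. The libraries with CT83 come from the CT83 and double lines only, and those without it from the HORMAD1 and control lines. Other differences between these lines cannot be told apart from CT83, and the same limit holds for the HORMAD1 grouping below. The DUSP4 log2 fold change was -0.19 (SE 0.057, 95% interval -0.31 to -0.07, edgeR adjusted p = 0.428), a level of 0.877-fold. With the trend on transcript length removed it was -0.18 (SE 0.07, edgeR adjusted p = 0.736).
DUSP10 had 72.9, 78.3 and 96.8 CPM with CT83, against 72.3, 106 and 125 CPM without CT83. Here HORMAD1 replicate 1 was the lowest of all, while the other 5 libraries without CT83 were 96 CPM or more, and the log2 fold change was -0.34 (SE 0.12, edgeR adjusted p = 0.598). DUSP1 had 19.1, 23 and 24.5 CPM with CT83, against 23.5, 26.1 and 28.8 CPM without CT83, with 4 of the 6 libraries below all of the others and a log2 fold change of -0.23 (SE 0.09, edgeR adjusted p = 0.652, unadjusted p = 0.0207). With its opposite-strand partner added it stood at -0.13 (edgeR unadjusted p = 0.107). DUSP5 stood at -0.17 (SE 0.079, edgeR adjusted p = 0.8), and at -0.09 without the 3 high-slope libraries. SPRY2, SPRY4, SPRED1 and SPRED2 lay between -0.03 and 0.05, and DUSP6 at 0.08 (SE 0.09). DUSP1, DUSP4 and DUSP10 had an unadjusted p under 0.05, all lower, as did 6.21% of all genes in either direction. None of the 9 was higher without overlap, as 0.154% of all genes were.
The 6 libraries with HORMAD1 against the 6 without it gave 0 of the 9 called by edgeR (0.0064% of all genes). DUSP6 had 94.2, 106 and 145 CPM with HORMAD1, against 86.2, 96.9 and 102 CPM without HORMAD1, a log2 fold change of 0.21 (SE 0.09, edgeR adjusted p = 0.899), or 0.12 without the 3 high-slope libraries. SPRED1 had 38.8, 43.8 and 47 CPM with HORMAD1, against 36.9, 38.6 and 40.4 CPM without HORMAD1, a log2 fold change of 0.15 (SE 0.067, edgeR adjusted p = 0.899). DUSP6 and SPRED1 had an unadjusted p under 0.05, as did 3.73% of all genes. All 9 genes overlapped, where 0.0512% of all genes were lower and 0.0448% higher without overlap, and DUSP4 and DUSP10 stood at 0 and -0.01.

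DUSP10 was the gene of the 9 most often called when libraries were left out. Its lowest library without CT83 was HORMAD1 replicate 1, its highest with CT83 was CT83 replicate 3 and its lowest control was control replicate 2, the same 3 libraries in which long transcripts read high. Without these 3, DUSP10 had 72.9 and 77 CPM in CT83 libraries, 114 and 125 CPM in HORMAD1 libraries, 79.6, 87.4 and 73.9 CPM in double libraries, and 103 and 109 CPM in control libraries, so that lines with and without CT83 no longer overlapped. edgeR then called DUSP10 lower in the CT83 line than in control (-0.5, adjusted p = 0.00938), in the double line than in control (-0.4, adjusted p = 0.0426) and in the double than in the HORMAD1 line (-0.57, adjusted p = 0.000137). It was then 1 of 9 genes called in each of the 3 comparisons, where 0.76%, 0.083% and 2.16% of all genes were. With CT83 against without CT83, DUSP10 stood at -0.54 (edgeR adjusted p = 7.13e-06) and DUSP4 at -0.24 (edgeR adjusted p = 0.00825), both called, with 4.86% of all genes. The other comparisons without these 3 libraries called 0 of the 9, where 0.0383% of all genes were called for the HORMAD1 line against control, 0.466% for the double against the CT83 line, 0.14% for the interaction and 0.0319% with HORMAD1 against without HORMAD1. Leaving out HORMAD1 replicate 1 alone moved DUSP10 to -0.58 in the double against the HORMAD1 line (edgeR adjusted p = 0.0438, 0.246% of all genes called) and to -0.45 with CT83 against without (edgeR adjusted p = 0.0136, 0.612% called). With all 12 libraries kept and the trend on transcript length removed, DUSP10 was not called: it stood at -0.33, -0.35 and -0.38 in the 3 comparisons (edgeR adjusted p = 0.98, 0.938 and 0.754). Leaving out double replicate 1 alone, the library with the lowest slope, edgeR called 0 of the 9 genes in every comparison. The calls thus rest on which libraries are kept.
Part of the luminal epithelium markers moved with DUSP10, and so did the sum of the basal markers within the CT83, HORMAD1 and double lines. The 6 markers KRT8, KRT18, KRT19, EPCAM, CD24 and GATA3 summed to 3368, 3287 and 3572 CPM in CT83 libraries, 3413, 4533 and 4487 CPM in HORMAD1 libraries, 3376, 3718 and 3151 CPM in double libraries, and 4018, 4523 and 4131 CPM in control libraries. HORMAD1 replicate 1 had the lowest sum of the 6 libraries without CT83, as for DUSP10, but control replicate 2 had the highest control sum and the lowest control DUSP10. KRT8 made up most of the sum, averaging 1921 CPM in CT83 libraries, 2370 in the HORMAD1 line, 1922 in the double line and 2409 in control, followed by KRT18 at 971, 1127, 954 and 1172 CPM in the same order. EPCAM averaged 187, 192, 181 and 196 CPM in that order, with overlap between all lines, and KRT19 was at most 1.49 CPM in any library. The 3 general epithelium markers CDH1, CLDN4 and CDH3 summed to between 909 and 1048 CPM in CT83 libraries, 945 and 1156 in the HORMAD1 line, 790 and 945 in the double line, and 1047 and 1128 in control. The basal mammary markers summed to 5451, 5714 and 6267 CPM in CT83 libraries and 4716, 5965 and 6335 CPM in HORMAD1 libraries. They summed to 6418, 6507 and 5735 CPM in double libraries and 6149, 6305 and 6557 CPM in control libraries. The order of these sums followed that of DUSP10 in the CT83, HORMAD1 and double lines, not in control. KRT5, KRT17 and ITGA6 each had the order of the sum in those lines. KRT14 did not in the CT83 line (492, 566 and 497 CPM) or the double line (728, 660 and 443 CPM). TP63 ran the other way in the CT83 line (152, 150 and 134 CPM) and the HORMAD1 line (152, 137 and 131 CPM). None of the luminal markers was at 0 in any line, and the part of all these markers in the DUSP10 values was not tested.

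**Figure D3:**
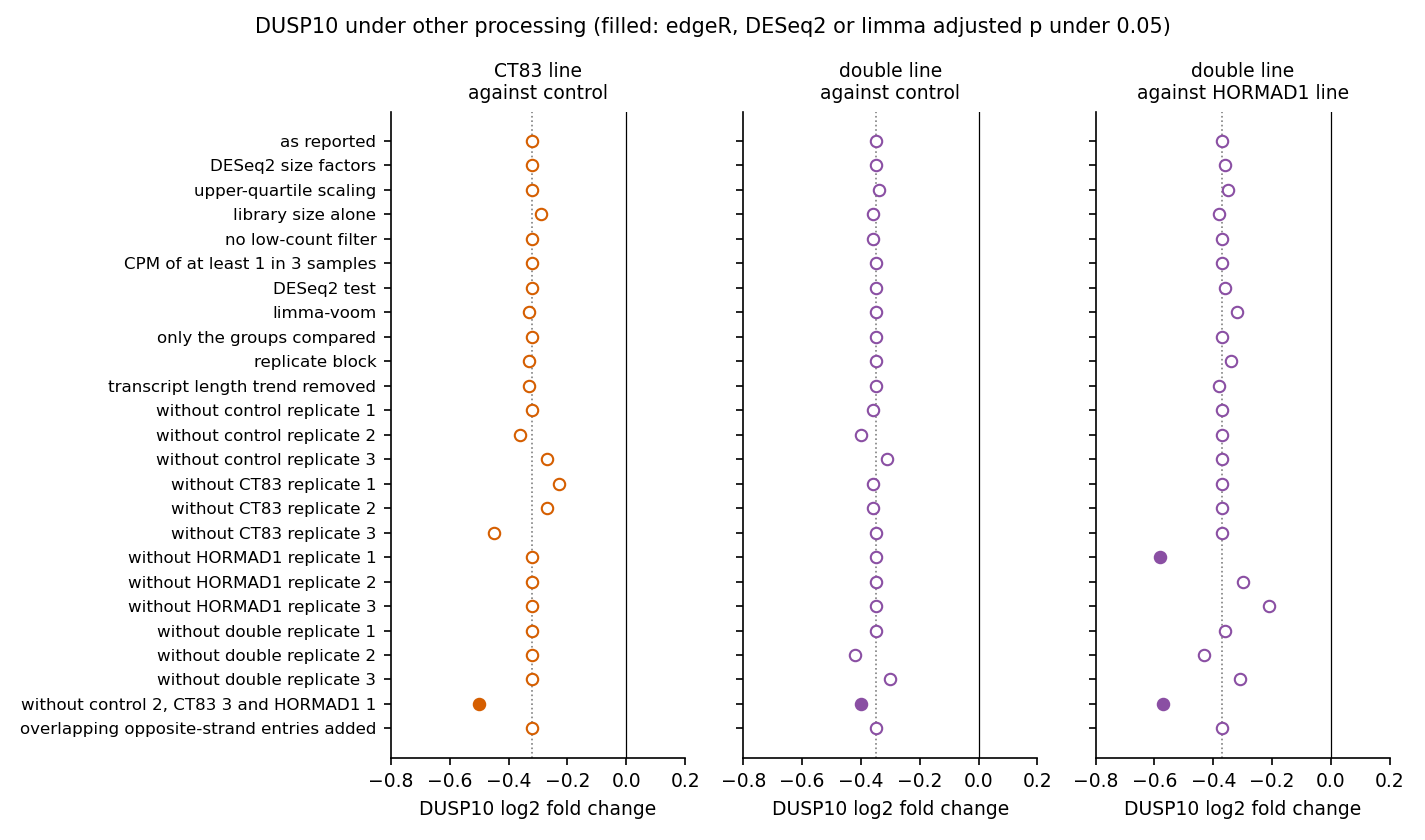
Log2 fold change of DUSP10 in 3 comparisons as reported and under each alternative, with filled points where the adjusted p was under 0.05 and a dotted line at the reported value. Every point lies below 0, and the filled points are those without control 2, CT83 3 and HORMAD1 1 and, against the HORMAD1 line, without HORMAD1 1 alone.

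The 9 genes did not move as a block across libraries. Over the 12 libraries and on log2 CPM, the most alike pairs were DUSP4 with DUSP10 (Pearson r = 0.75) and SPRY2 with SPRY4 (r = 0.62), and the most opposed were DUSP1 with SPRED2 (r = -0.56) and DUSP6 with DUSP10 (r = -0.46). These are descriptions over 12 libraries that share lines and scaling. The libraries of 1 line varied most for SPRY2 (coefficient of variation 24.4%), SPRY4 (23.6%) and DUSP10 (17.4%), and least for DUSP4 (5.72%) and SPRED1 (6.63%). Against the libraries' slope on transcript length, r over the 12 libraries was 0.85 for SPRY4, 0.65 for SPRED2 and 0.49 for SPRY2, and -0.19 for DUSP10, 0.16 for DUSP4 and -0.01 for DUSP6. With that trend removed, SPRY4 stood at 0.16 in place of 0.19 for the CT83 line against control, and SPRY2 at 0.26 in place of 0.27. Beyond fits of this kind, the part of that slope in the Sprouty values was not tested.
The mean of the 9 genes over libraries was most like AREL1 (r = 0.935), QKI (r = 0.926), ENC1 (r = 0.906), RC3H2 (r = 0.902) and RASA1 (r = 0.902), among 6185 genes of at least moderate level. DUSP6 alone was most like its opposite-strand entry ENSG00000274021 (r = 0.935), followed by RBM23 (r = 0.892), LCORL (r = 0.891), MT1E (r = 0.886) and ASB1 (r = 0.869). The same measure for DUSP10, chosen after its values were seen, gave PUF60 (r = 0.971), MYD88 (r = 0.951), SLC2A1 (r = 0.951), SLC38A1 (r = 0.943) and CD24 (r = 0.942), the last one of the luminal markers.

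**Figure D4:**
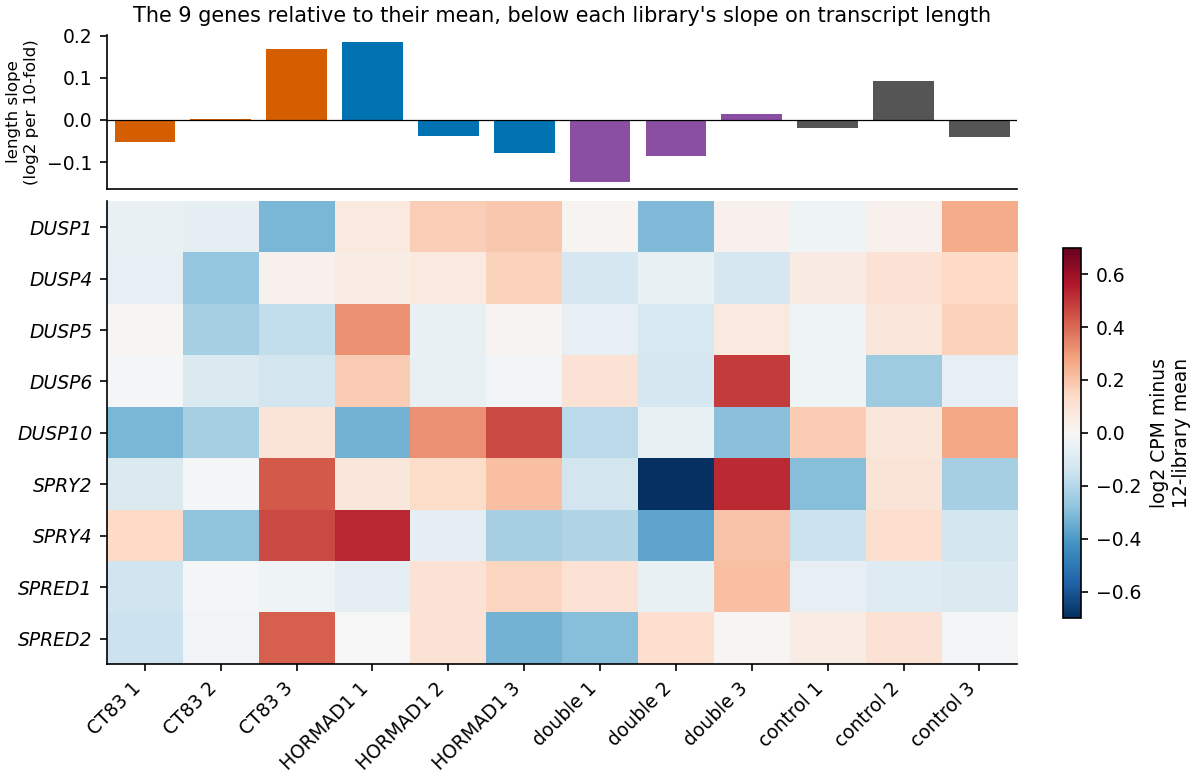
Log2 CPM of each of the 9 genes minus its mean over the 12 libraries (colour, red higher and blue lower), below the slope of each library on transcript length (bars). SPRY4 is reddest in HORMAD1 1 (0.53) and CT83 3 (0.46), which have the steepest slopes, while DUSP10 is bluest in HORMAD1 1 (-0.33) and CT83 1 (-0.32).

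The rest of the pathway was read through 6 lists. Their counts at an unadjusted p under 0.05 stand beside 2.74% of all genes for the CT83 line, 1.82% for the HORMAD1 line and 5.56% for the double line, each against control. Whether a list differs from that rate was not tested. Of 11 other DUSP, SPRY and SPRED genes 8 were tested, and edgeR called 0 of them higher and 0 lower in every comparison; at an unadjusted p under 0.05 against control it had 1, higher in the CT83 line. DUSP16, a phosphatase of JNK and p38, had 16.6, 18.9 and 15.3 CPM in CT83 libraries, against 12.3, 13 and 14.2 CPM in control libraries, a log2 fold change of 0.37 (SE 0.14, edgeR adjusted p = 0.984). DUSP3, which acts on ERK and JNK, stood at -0.15 (SE 0.091, edgeR adjusted p = 0.984) in the same comparison. DUSP16 was higher without overlap, as were 4.73% of all genes tested, and DUSP3 was lower without overlap, as were 5.73%. DUSP8, DUSP9 and SPRY3 were too low to test.
Of the receptor-to-ERK cascade 25 of 26 genes were tested, with 0 called in either direction by edgeR in any comparison and 2 at an unadjusted p under 0.05 against control, both higher in the double line. NRAS, a Ras GTPase, had 313, 269 and 296 CPM in double libraries, against 228, 203 and 267 CPM in control libraries. It was higher without overlap, as were 7.61% of all genes tested, with a log2 fold change of 0.33 (SE 0.1, edgeR adjusted p = 0.712). The adaptor SHC1 had 158, 162 and 160 CPM in double libraries, against 144, 128 and 144 CPM in control libraries, a log2 fold change of 0.2 (SE 0.079, edgeR adjusted p = 0.846). EGFR averaged 217 ± 49.6 CPM in CT83 libraries, 190 ± 38.7 in the HORMAD1 line, 176 ± 19.6 in the double line and 206 ± 20.5 in control (SD, n = 3 each). In the JNK and p38 cascade all 16 genes were tested and 0 called by edgeR; unadjusted, 3 were lower in the double line and 1 higher in the CT83 line than in control. The kinase MAP2K7, which activates JNK, stood at -0.26 (SE 0.1, edgeR adjusted p = 0.846) in the double line against control. MAP3K5, a stress kinase above JNK and p38, stood at 0.47 (SE 0.18, edgeR adjusted p = 0.984) in the CT83 line against control.
ERK-responsive transcripts, 17 of 18 of them tested, also had 0 called by edgeR in any comparison; unadjusted and against control, 1 was lower in the CT83 line, 2 higher in the HORMAD1 line and 1 lower in the double line. MYC had 337, 352 and 329 CPM in double libraries, against 409, 407 and 380 CPM in control libraries. It was lower without overlap, as were 7.83% of all genes tested, with a log2 fold change of -0.23 (SE 0.069, edgeR adjusted p = 0.712). HBEGF, an EGFR ligand whose gene answers to ERK, had 32.8, 27.8 and 26.3 CPM in HORMAD1 libraries, against 21, 20.5 and 19 CPM in control libraries. It was higher without overlap, as were 4.25% of all genes tested, with a log2 fold change of 0.52 (SE 0.16, edgeR adjusted p = 1). HBEGF also stands in the list of EGFR and FGFR ligands, of which 8 of 10 were tested and 0 called by edgeR. Unadjusted, 1 ligand was higher in the CT83 line, 1 higher and 1 lower in the HORMAD1 line and 1 higher in the double line than in control. EREG, another EGFR ligand, had 39, 38.6 and 27 CPM in CT83 libraries, against 29, 22.6 and 26.2 CPM in control libraries, with overlap (0.43, SE 0.14, edgeR adjusted p = 0.984). Of 9 partners of Sprouty and SPRED proteins 7 were tested and 0 called by edgeR, with 1 lower in the double line than in control unadjusted. The ubiquitin ligase CBL stood at -0.28 (SE 0.12, edgeR adjusted p = 0.87) in the double line and the membrane scaffold CAV1 at -0.21 (SE 0.1, edgeR adjusted p = 0.984) in the CT83 line, both against control. The partner PPP2CA, a phosphatase subunit that cells generally use, was listed at 0 in all 12 libraries, so a listed 0 in these tables does not show that a gene is silent. In the ERK-responsive list the median log2 fold change was 0 in the CT83 line, 0.12 in the HORMAD1 line and -0.07 in the double line against control, beside 0.01, 0.01 and 0 over all genes tested. For the double against the HORMAD1 line this median was -0.23, beside -0.01 over all genes. There 1 gene of the list was higher and 4 lower at an unadjusted edgeR p under 0.05, beside 7.59% of all genes. The smallest edgeR adjusted p in that comparison was 0.138.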

How the data were processed

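Polyadenylated RNA of 12 samples, 3 in each of 4 lines grouped by the labels, was prepared with a NEBNext Ultra kit per the labels' protocols. The tools SAMtools, Picard, STAR 2.7.5c and Trimmomatic 0.39 are listed, per the submitters' processing notes, with 2 builds (hg38, hg19) that have no stated role. What counted the reads, with which annotation and strand setting, is not given in the sources used here. Deposited values are expected counts per gene, which were rounded (6.75% of values changed). ERCC RNA was added per the labels, and the files held 0 ERCC entries. Of 61533 gene entries, 61518 matched a symbol and 58356 are in GENCODE 29, used for coordinates and lengths.

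In R 4.3.3 with edgeR 4.0.16, genes were filtered at a minimum count of 10 (15616 kept), scaled by TMM and fitted in 1 robust quasi-likelihood model of the 4 line means over all 12 samples (8 residual degrees of freedom). Benjamini-Hochberg adjustment ran over all genes in each comparison, and genes were called under 0.05. The SE is the fold change over the root of F. Log2 CPM took a prior count of 2, and likeness was computed over genes above a fixed mean level. Alternatives included limma 3.58.1, DESeq2 1.42.0, scalings, filters, a replicate block and left-out libraries. Intervals cover the spread between samples. The median SE was 0.215 for the interaction and 0.14 over the other comparisons. The fit was tested on simulated data.

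The 9 genes, the lists and the rule for naming were chosen with earlier results of these data known. All 9 genes are named in every comparison against control, and from each list the 2 with the smallest unadjusted p over those comparisons. EGFR, DUSP8, DUSP9, SPRY3 and PPP2CA are named outside that rule, as are the genes most like DUSP10, chosen after values were seen.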

Additional observations from a re-analysis of the deposited data

How the results depend on the processing

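With 3 samples per line, log2 fold changes of the 9 genes had SEs of 0.0807 to 0.247 between lines, which limits what could be called. Of 1773 values of the 9 genes under alternatives, 1631 kept their sign and side of the threshold, 7 newly passed and 135 changed sign, none of them passing and all from fitted values of at most 0.24 in size. Of the 9 genes, 0 were called by TMM, DESeq2 size factors, upper-quartile or library-size scaling, other filters, DESeq2, limma-voom, the block or the looser threshold of 0.1. Genes of the 9 called in place of 0 numbered 1 for CT83 against control, double against control and double against HORMAD1, and 2 with against without CT83, when control 2, CT83 3 and HORMAD1 1 were left out. Leaving out each replicate in turn gave 0 to 1 for double against HORMAD1 and with against without CT83, the 1 being DUSP10 without HORMAD1 replicate 1. The cause was not tested.

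Over all genes tested, 1 was called for CT83 against control, and 0 with no low-count filter or with only the groups compared, 119 without the 3 libraries, and 0 to 1 leaving out each replicate. For HORMAD1 against control the 1 became 2 with DESeq2, 0 with only the groups compared, 6 without the 3 libraries and 1 to 2 leaving out each replicate. For double against control the 4 became 12 with no filter, 2 with limma-voom or the replicate block, 13 without the 3 libraries and 1 to 5 leaving out each replicate. For double against CT83 the 1 became 0 with no filter, 3 with DESeq2, 2 with limma-voom or the block, 73 without the 3 libraries and 1 to 2 leaving out each replicate. For double against HORMAD1 the 7 became 99 with no filter, 57 with DESeq2, 3 with limma-voom, 1 with only the groups compared or the block, 12 at the looser threshold, 339 without the 3 libraries and 0 to 39 leaving out each replicate. For the interaction the 0 became 2 with no filter, 3 with DESeq2 and 22 without the 3 libraries. With against without CT83, the 5 became 60 with no filter, 34 with DESeq2, 3 with the block, 761 without the 3 libraries and 0 to 97 leaving out each replicate. With against without HORMAD1, the 1 became 5 without the 3 libraries and 1 to 2 leaving out each replicate. The highest counts, 39 for double against HORMAD1 and 97 with against without CT83, came without HORMAD1 replicate 1; without CT83 replicate 3 they were 14 and 19, and without either other HORMAD1 library 0 and 3. Same-numbered samples of different lines correlated between -0.3543 and 0.3514 in their deviations, and 6 of 12 libraries correlated best with their own number, so the numbers were not taken as pairs.

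With a CPM filter the log2 fold change changed sign to DUSP4 0 and SPRED1 0 in the interaction. With library size alone it was DUSP4 0.01 in HORMAD1 against control, SPRED2 0 in double against HORMAD1, DUSP1 -0.04, DUSP4 -0.04 and SPRED1 -0.04 in the interaction. With limma-voom it was DUSP10 -0.03 in HORMAD1 against control, DUSP4 0 in double against CT83, DUSP1 0 and DUSP10 0.01 in the interaction, SPRY2 -0.01 for with against without CT83. With the replicate block it was DUSP10 -0.01 in HORMAD1 against control, DUSP4 0 in double against CT83. With the transcript length trend removed it was SPRED1 -0.03 in CT83 against control, DUSP4 0.09 in double against CT83, DUSP1 -0.02 and SPRED2 0.02 in the interaction, DUSP4 0.05 and SPRY4 0 for with against without HORMAD1. With upper-quartile scaling it was DUSP4 0.01 in double against CT83, DUSP4 0 for with against without HORMAD1. Without control 2, CT83 3 and HORMAD1 1 the log2 fold change changed sign to DUSP6 -0.02 and SPRED2 -0.1 in CT83 against control, DUSP4 0.02, DUSP5 -0.08 and SPRY4 0 in HORMAD1 against control, SPRY4 0.03 in double against control, DUSP1 -0.02, DUSP4 0.06, DUSP10 0.1, SPRY2 0.02 and SPRED2 0.03 in double against CT83. It also changed sign to SPRY4 0.03 and SPRED1 -0.04 in double against HORMAD1, DUSP1 -0.08, SPRED1 -0.04 and SPRED2 0.15 in the interaction, SPRY2 0, SPRY4 0.06, SPRED1 -0.02 and SPRED2 -0.03 for with against without CT83, DUSP4 0.04, DUSP5 0 and DUSP10 0.14 for with against without HORMAD1 there.

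The ranges of log2 fold change over leaving out each replicate, for genes that changed sign, were as follows. In CT83 against control, DUSP6 -0.03 to 0.07, SPRY4 0 to 0.36 and SPRED2 -0.13 to 0.17. In HORMAD1 against control, DUSP1 -0.01 to 0.14, DUSP4 -0.04 to 0.02, DUSP5 -0.08 to 0.11, DUSP10 -0.15 to 0.22, SPRY4 -0.09 to 0.33 and SPRED2 -0.2 to 0. In double against control, SPRY2 -0.26 to 0.37, SPRY4 -0.24 to 0.06 and SPRED2 -0.19 to 0.02. In double against CT83, DUSP1 -0.02 to 0.17, DUSP4 -0.09 to 0.06, DUSP10 -0.12 to 0.1, SPRY2 -0.53 to 0.1 and SPRED2 -0.27 to 0.03. In double against HORMAD1, DUSP6 -0.05 to 0.27, SPRY2 -0.54 to 0.08, SPRY4 -0.42 to 0.03, SPRED1 -0.04 to 0.1 and SPRED2 -0.1 to 0.13. In the interaction, DUSP1 -0.08 to 0.12, DUSP4 -0.08 to 0.06, DUSP5 -0.02 to 0.17, DUSP6 -0.08 to 0.24, DUSP10 -0.26 to 0.11, SPRED1 -0.07 to 0.07 and SPRED2 -0.16 to 0.14. In samples with against without CT83, DUSP6 -0.01 to 0.15, SPRY2 -0.14 to 0.17, SPRY4 -0.12 to 0.11, SPRED1 -0.01 to 0.06 and SPRED2 -0.06 to 0.09. In samples with against without HORMAD1, DUSP4 -0.05 to 0.03, DUSP10 -0.09 to 0.09, SPRY2 -0.12 to 0.19 and SPRY4 -0.17 to 0.06.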
